A study of Mus musculus with 24 samples.

Results

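The genes described here are the protein-coding genes of mouse chromosomes 7, 8 and 17 whose symbol is Zfp followed by a number, the main naming series for zinc finger genes in the mouse. Their identifiers were matched to symbols and positions through GENCODE M21 (genome build GRCm38), and 162 of the 53465 genes in the files met the rule. Of these, 92 lie on chromosome 7, 24 on chromosome 8 and 46 on chromosome 17. A member was called clustered when it stood in a run of at least 3 members whose neighbouring gene bodies were at most 200 kb apart, and single otherwise. Only members were counted as neighbours, so a single member may stand in a pair or beside zinc finger genes with other names. By this definition 113 members were clustered, in 15 runs, and 49 were single. Another 232 Zfp genes lie on other chromosomes and served for comparison.

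RNA from the brain was sequenced in 12 mice, 6 of the strain CAST/EiJ and 6 of the strain WSB/EiJ. Both are inbred and descend from wild mice, of the subspecies castaneus in CAST/EiJ and domesticus in WSB/EiJ. The labels name no treatment or genetic change in either strain, and no source used here gives sex, age or the part of the brain taken. Each library was read on 2 lanes, which were summed, so that n is 6 animals a strain throughout. The p-values set the strain difference against the spread between animals.

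Most zinc finger genes of this kind encode DNA-binding proteins. Each classical finger is held together by a zinc ion between a pair of cysteines and a pair of histidines, and a row of fingers reads a row of DNA bases. Many carry a KRAB domain near the amino end, which binds the corepressor TRIM28 (also called KAP1), and through it the histone methyltransferase SETDB1, heterochromatin proteins and deacetylases. KRAB zinc finger proteins are known above all for silencing transposable elements, and a few keep imprinted genes methylated. The family grows by tandem duplication, which leaves runs of similar genes side by side. This is the reason for setting clustered genes beside single ones.

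The libraries held 32982569 to 46513232 reads in genes per animal, which was 62.9% to 68.0% of the alignments counted. Markers of neurons, astrocytes, oligodendrocytes, microglia and endothelium were present in every animal; Snap25, a synaptic vesicle fusion protein of neurons, stood at 1765 to 2749 CPM (reads scaled to a common library total). Of the cerebellar granule cell markers, 3 of 3 (Cbln3, Gabra6 and Fat2) reached 333 to 550 CPM in animal CAST_142, and no other animal was above 10.3 CPM. In the same animal Drd2, a dopamine receptor of the striatum, was at 4.13 CPM, against 31.7 to 66.6 CPM in the WSB animals. Animal WSB_100 had the highest Doc2g, Eomes and Cdhr1 of all animals, the 3 markers of the olfactory bulb (13.8, 25.8 and 169.4 CPM). The calls over all, clustered and single members, and named genes whose call changed, are given with and without these 2 animals.

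All CPM values are scaled by TMM, a correction for library composition. Differences are log2 of CAST over WSB with the standard error (SE), and a gene was called when its p from edgeR's quasi-likelihood test, adjusted by Benjamini-Hochberg over all 18425 genes tested, was under 0.05. Of the 162 members, 148 had enough reads to be tested. Of those, 77 (52.0%) were called, 38 higher and 39 lower in CAST. The background was 42.7% over all genes tested, 39.3% over protein-coding genes tested and 42.9% over the Zfp genes on other chromosomes. The median difference over the tested members was -0.03, so that no direction prevailed. The median size regardless of sign was 0.25, against 0.22 over all genes, 0.18 over protein-coding genes and 0.17 over the other Zfp genes. In 54 of the 148 tested members the values of the strains did not overlap. The background for this was 27.1% of all genes, 23.6% of protein-coding genes and 26.7% of the other Zfp genes. With at least a 2-fold difference 11 members were called, 7.43% of those tested. The background there was 12.2% of all genes, 7.46% of protein-coding genes and 7.85% of the other Zfp genes. In whole tissue a change in the share of a cell type and a change in RNA per cell cannot be told apart. DESeq2 called 81 members, against a background of 44.8% of all genes. Without CAST_142 and WSB_100, edgeR also called 81 members, and the background over all genes was 46.6%; 73 of the 77 kept their call and direction, and the calls of Zfp260, Zfp36, Zfp568 and Zfp703 were lost.

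Clustered and single members gave different values. Of 106 clustered members tested, 61 (57.5%) were called, 29 higher and 32 lower in CAST, with a median size of 0.28 and 10 differences of at least 2-fold. Of 42 single members tested, 16 (38.1%) were called, 9 higher and 7 lower, with a median size of 0.16 and 1 difference of at least 2-fold. The share among single members was near the 39.3% of protein-coding genes, and that among clustered members was above it. The strains did not overlap in 46 clustered and 8 single members, where the background was 23.6% of protein-coding genes and 27.1% of all genes. The spread between animals of a strain was close in both groups, with a median coefficient of variation of 8.32% in clustered and 9.08% in single members. Members differ in depth, and among those with a mean of at least 5 CPM 51 of 84 clustered (60.7%) and 14 of 37 single members (37.8%) were called. Without CAST_142 and WSB_100 the shares were 60.4% and 40.5%. With a run defined as at least 2 members, 63 of 115 clustered and 14 of 33 single members were called, and the median sizes were closer, 0.26 and 0.22. Neighbouring genes share sequence and chromosome region and are not independent, and the difference between the shares was not tested.

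**Figure D1:**
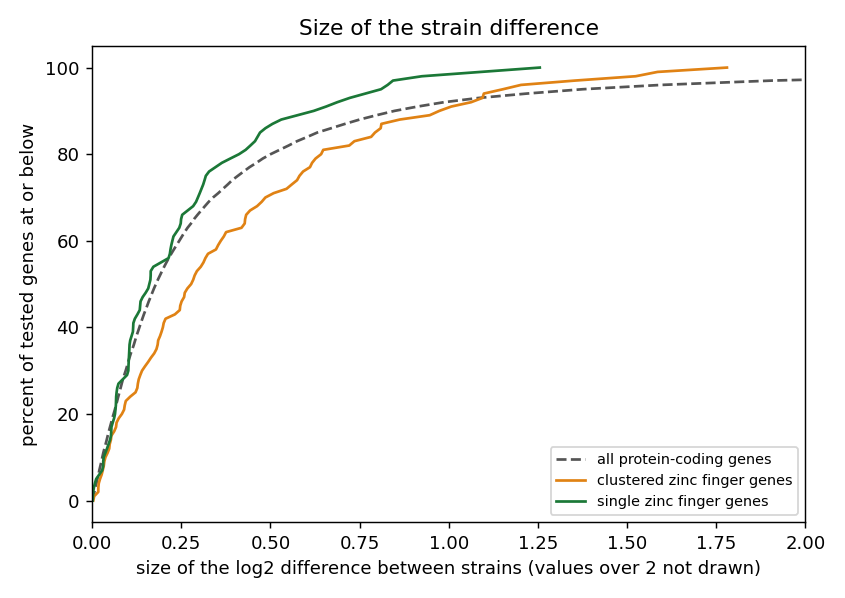
Cumulative plot of the size of the strain difference: the x axis is the log2 difference without its sign, the y axis the percent of tested genes at or below it, for 106 clustered members (orange), 42 single members (green) and 14939 protein-coding genes (dashed). The orange line lies to the right of both others over most of the range, with a median of 0.28 against 0.16 for the green line.

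Neighbours in a run went the same way in some pairs and opposite ways in others. Among clustered members there were 91 pairs of tested neighbours within a run, and in 33 of them both genes were called. The direction was the same in 20 pairs (60.6%) and opposite in 13. Over all protein-coding genes, 1281 of 2260 neighbouring pairs with both genes called (56.7%) had the same direction. The median gap between neighbours within a run was 0.48 on the log2 scale, against 0.31 between neighbouring protein-coding genes. Of the 15 runs, 8 held calls in both directions, 6 in a single direction and 1 held none.

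**Figure D2:**
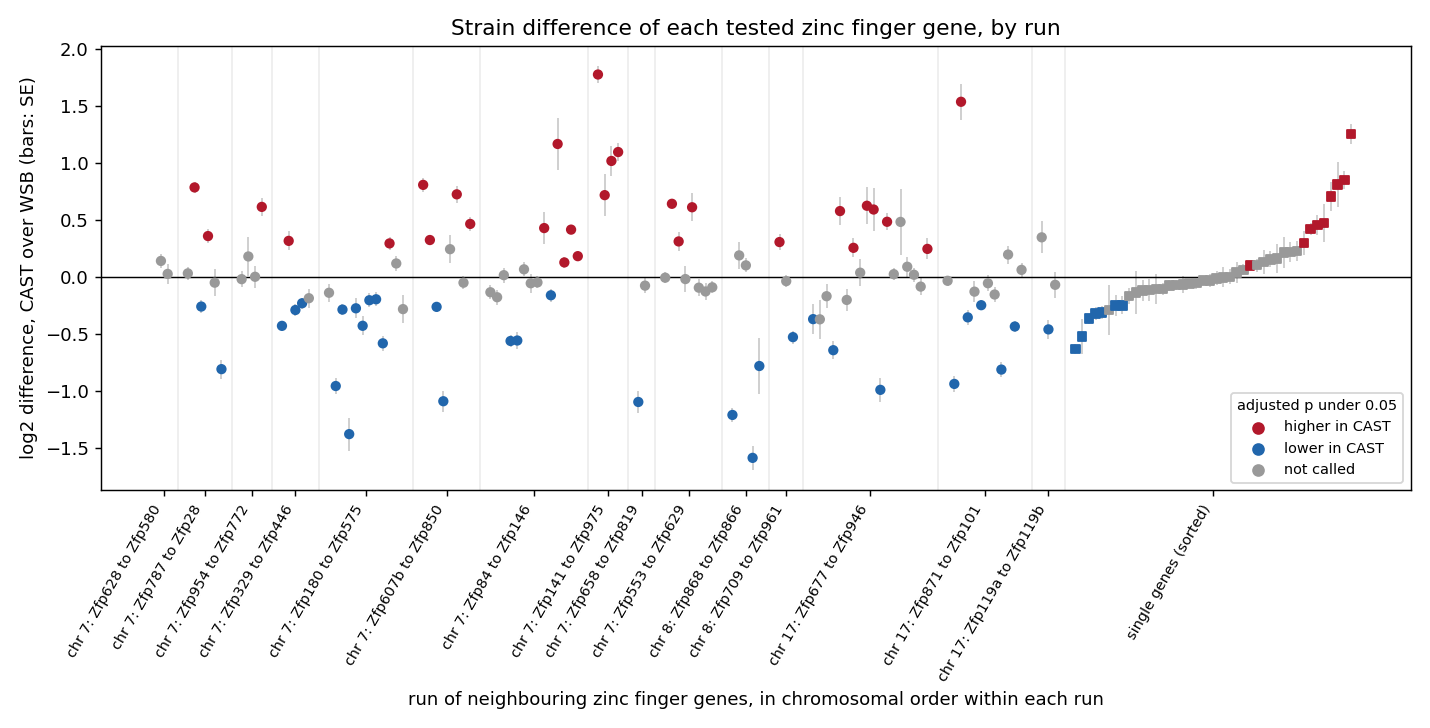
Strain difference of each tested zinc finger gene: the y axis is the log2 difference of CAST over WSB with its SE, the x axis the genes in chromosomal order within each run (circles) and the single genes sorted by value (squares). Red marks genes called higher and blue genes called lower in CAST; the 4 genes from Zfp141 to Zfp975 are red, and 8 of the 12 genes from Zfp180 to Zfp575 are blue.

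The run from Zfp141 to Zfp975 on chromosome 7 (42473386 to 42692742, all on the minus strand) was higher in CAST in each of its 4 members. All 4 encode KRAB zinc finger proteins, with 10 fingers in Zfp141, 11 in Zfp977, 18 in Zfp976 and 14 in Zfp975. Their promoters are shown because these neighbours moved together; each sequence runs from 250 bases before to 50 bases after the first RefSeq start on GRCm38.p6, and the capitals mark CCAAT, or ATTGG where the motif lies on the other strand.
Zfp141, chr7:42505704-42506003, minus strand: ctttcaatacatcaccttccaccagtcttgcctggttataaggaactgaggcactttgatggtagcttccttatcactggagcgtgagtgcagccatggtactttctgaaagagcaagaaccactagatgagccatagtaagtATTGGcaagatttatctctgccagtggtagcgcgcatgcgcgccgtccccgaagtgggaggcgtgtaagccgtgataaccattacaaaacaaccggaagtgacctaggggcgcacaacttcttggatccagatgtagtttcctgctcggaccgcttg
Zfp977, chr7:42592496-42592795, minus strand: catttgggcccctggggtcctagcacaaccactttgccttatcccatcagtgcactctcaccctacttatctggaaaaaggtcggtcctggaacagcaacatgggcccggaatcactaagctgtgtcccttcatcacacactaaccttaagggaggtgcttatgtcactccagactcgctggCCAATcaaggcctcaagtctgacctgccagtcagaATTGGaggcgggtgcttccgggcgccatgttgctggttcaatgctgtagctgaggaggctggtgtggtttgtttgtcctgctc
Zfp976, chr7:42642555-42642854, minus strand: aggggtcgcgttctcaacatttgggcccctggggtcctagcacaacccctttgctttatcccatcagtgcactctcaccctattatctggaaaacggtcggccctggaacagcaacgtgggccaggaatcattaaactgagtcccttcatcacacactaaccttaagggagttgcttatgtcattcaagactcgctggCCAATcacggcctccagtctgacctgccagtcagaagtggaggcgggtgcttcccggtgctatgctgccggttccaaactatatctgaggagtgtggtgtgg
Zfp975, chr7:42692669-42692968, minus strand: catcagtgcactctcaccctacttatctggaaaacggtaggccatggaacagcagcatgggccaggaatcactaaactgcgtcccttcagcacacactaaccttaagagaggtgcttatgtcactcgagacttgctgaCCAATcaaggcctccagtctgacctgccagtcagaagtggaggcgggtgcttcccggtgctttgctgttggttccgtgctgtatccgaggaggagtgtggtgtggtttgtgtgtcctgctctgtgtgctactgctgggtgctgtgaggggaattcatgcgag
The promoters of Zfp977, Zfp976 and Zfp975 were alike, at 89.5% to 90.8% identity over their aligned bases, and that of Zfp141 was 69.9% to 70.0% identical to them. Zfp141 had 42.0, 48.8 and 51.6 CPM in CAST (lowest, median and highest animal) and 12.02, 14.1 and 16.5 CPM in WSB. The strains did not overlap, a 3.43-fold difference (log2 1.78 ± 0.07 SE, edgeR adjusted p = 3.93e-10). The body of Zfp141 lies at least partly inside another gene. Its count may lack reads set aside as lying in both genes, or hold reads of that gene. Zfp975 had 12.9, 14.1 and 16.8 CPM in CAST and 6.19, 6.72 and 7.52 CPM in WSB (log2 1.10 ± 0.08 SE, edgeR adjusted p = 6.24e-08). Zfp976 had 7.79, 11.2 and 13.0 CPM in CAST and 4.53, 5.40 and 6.99 CPM in WSB (log2 1.02 ± 0.13 SE, edgeR adjusted p = 2.92e-05). In both, every CAST animal was above every WSB animal. Zfp977, with 1.22, 2.25 and 2.43 CPM in CAST and 1.06, 1.13 and 1.77 CPM in WSB, overlapped between the strains (log2 0.72 ± 0.18 SE, edgeR adjusted p = 0.00611).

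Sequence that members share with other genes bears on these counts, because a read that fits several places is counted for none of them when only unique alignments are kept; alignments set aside as not unique were 15.6% to 16.1% in the CAST and 16.99% to 17.5% in the WSB animals, which did not overlap. The part of this difference in the strain differences of the members was not tested. Zfp975 and Zfp976 share 95.8% of their aligned coding bases. A stretch of 84 bases that codes for the same finger with its linker shows how close they are; capitals mark the codons of the cysteines and histidines that hold the zinc ion.
Zfp975: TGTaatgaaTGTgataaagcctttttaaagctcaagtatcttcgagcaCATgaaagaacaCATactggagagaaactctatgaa
Zfp976: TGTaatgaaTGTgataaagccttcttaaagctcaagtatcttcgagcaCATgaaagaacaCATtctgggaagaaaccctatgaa
The stretches are identical at 79 of 84 bases, although only 2 of the 14 finger units of Zfp975 occur unchanged in Zfp976. Of the 32-base words in the transcripts of Zfp975, 45.2% occur in transcripts of another gene. The shares are 34.8% for Zfp976, 28.3% for Zfp977 and 24.3% for Zfp141. Its part in the strain differences was not tested.

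On chromosome 7 the run from Zfp180 to Zfp575 (24081924 to 24587641) went mostly the other way. All 12 members were tested, 8 were lower in CAST, 1 was higher, and the median difference was -0.28. Zfp114 had 0.663, 0.978 and 1.31 CPM in CAST and 2.35, 2.51 and 2.64 CPM in WSB (log2 -1.38 ± 0.14 SE, edgeR adjusted p = 4.12e-06); 33.9% of its 32-base words occur in another gene. Zfp112 had 6.01, 6.79 and 7.39 CPM in CAST and 12.3, 12.8 and 15.6 CPM in WSB (log2 -0.96 ± 0.07 SE, edgeR adjusted p = 1.81e-07). The strains did not overlap in either gene. Zfp94 was the exception, at 12.5, 14.8 and 15.4 CPM in CAST and 11.03, 11.8 and 12.6 CPM in WSB (log2 0.30 ± 0.06 SE, edgeR adjusted p = 0.00132). Zfp180, the first gene of the run, was among the 5 members with most reads and was not called (log2 -0.14 ± 0.08 SE, edgeR adjusted p = 0.178).

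The neighbouring run from Zfp607b to Zfp850 held 4 members higher and 2 lower in CAST among 8. Zfp607b had 20.9, 25.3 and 27.8 CPM in CAST and 13.7, 14.1 and 14.6 CPM in WSB (log2 0.81 ± 0.06 SE, edgeR adjusted p = 2.39e-07). Within the same run Zfp59 had 2.78, 3.37 and 3.51 CPM in CAST and 6.04, 7.22 and 7.91 CPM in WSB (log2 -1.09 ± 0.09 SE, edgeR adjusted p = 4.11e-07). The strains did not overlap in either gene, and the directions were opposite. Zfp59 shares 64.4% of its 32-base words with another gene, and the gene model Gm7452 had the largest count of shared words.

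In the run from Zfp84 to Zfp146, 5 of 14 tested members were higher and 3 lower in CAST. Zfp382 was higher (log2 0.42 ± 0.04 SE, edgeR adjusted p = 1.84e-06), and Zfp940 was lower (log2 -0.56 ± 0.05 SE, edgeR adjusted p = 7.35e-07). Zfp568 and Zfp30, of this run, have known roles. Zfp568, a KRAB protein that silences a placental transcript of the growth factor gene Igf2 in the embryo, had 7.87, 9.84 and 13.9 CPM in CAST and 6.04, 7.71 and 8.79 CPM in WSB (log2 0.43 ± 0.14 SE, edgeR adjusted p = 0.0264). The strains overlapped, and the call was lost without WSB_100 (edgeR adjusted p = 0.0571) and without WSB_100 and CAST_142 together (log2 0.26, edgeR adjusted p = 0.0793). Zfp30, which has been linked to neutrophil recruitment in the lung, had 12.7, 13.8 and 16.4 CPM in CAST and 14.4, 15.96 and 17.1 CPM in WSB and just missed the threshold (log2 -0.18 ± 0.07 SE, edgeR adjusted p = 0.0502). Without CAST_142 it passed (edgeR adjusted p = 0.00470). Zfp82, named here after its value was seen, showed a 2.25-fold higher value in CAST at a very low level (0.379 against 0.168 CPM on average, edgeR adjusted p = 9.63e-04), with 8.39% of its body free of other genes.

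Of 5 smaller runs of chromosome 7, those from Zfp787 and from Zfp329 held calls in both directions. From Zfp787 to Zfp28, Zfp444 was higher in CAST, at 66.4, 73.7 and 77.3 CPM against 38.5, 43.2 and 43.9 CPM (log2 0.79 ± 0.05 SE, edgeR adjusted p = 1.06e-08), and Zfp28 was lower (log2 -0.81 ± 0.08 SE, edgeR adjusted p = 3.55e-06). From Zfp329 to Zfp446, Zfp329 was lower (log2 -0.43 ± 0.04 SE, edgeR adjusted p = 3.52e-06). Zfp110, also known as NRIF, which binds the neurotrophin receptor p75, lies in the same run and was higher (log2 0.32 ± 0.08 SE, edgeR adjusted p = 0.00789). From Zfp954 to Zfp772, Zfp772 alone of 4 was called, higher in CAST (log2 0.62 ± 0.08 SE, edgeR adjusted p = 2.56e-05). From Zfp658 to Zfp819, Zfp658 had 7.88, 9.14 and 11.2 CPM in CAST and 16.6, 19.5 and 23.4 CPM in WSB (log2 -1.10 ± 0.10 SE, edgeR adjusted p = 9.85e-07), with no overlap. In the run from Zfp628 to Zfp580 only 2 of 6 members could be tested, and neither was called.

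The last run of chromosome 7, from Zfp553 to Zfp629 (127233061 to 127615797), held 3 higher members and no lower one among 8. Zfp771 had 75.9, 79.2 and 82.9 CPM in CAST and 48.3, 50.6 and 53.4 CPM in WSB (log2 0.64 ± 0.04 SE, edgeR adjusted p = 8.20e-09). The groups stood well apart with little spread. Its transcripts share no 32-base word with another gene, and per kilobase of exon it had the highest level of all members, 32.3 CPM per kilobase over all animals, where the median over the 148 tested members was 3.47 CPM per kilobase.

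On chromosome 8 the run from Zfp868 to Zfp866 (69610857 to 69791178) had 3 of 5 members lower in CAST and none higher. Zfp868 had 10.98, 12.3 and 14.2 CPM in CAST and 26.6, 29.2 and 30.3 CPM in WSB (log2 -1.21 ± 0.06 SE, edgeR adjusted p = 3.50e-09). Zfp963 had 0.894, 1.10 and 1.23 CPM in CAST and 2.89, 3.33 and 3.59 CPM in WSB, the largest fall among the called members (3.01-fold, log2 -1.59 ± 0.10 SE, edgeR adjusted p = 4.07e-08). The strains did not overlap in either gene. Zfp963 overlaps the gene model Gm20422 on the same strand, with 14.7% of its body outside other genes. Its count may lack reads set aside as lying in both genes, or hold reads of that gene model. The counts do not show which. In the run from Zfp709 to Zfp961, Zfp709 was higher (log2 0.31 ± 0.07 SE, edgeR adjusted p = 0.00219) and Zfp961 lower (log2 -0.53 ± 0.06 SE, edgeR adjusted p = 4.67e-06).

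The longest run, from Zfp677 to Zfp946 on chromosome 17, spans 1072.9 kb and holds 18 members, all tested. Of them, 6 were higher and 3 lower in CAST. Zfp995 had 2.96, 3.64 and 4.39 CPM in CAST and 5.83, 7.56 and 7.74 CPM in WSB (log2 -0.99 ± 0.10 SE, edgeR adjusted p = 4.20e-06), without overlap. Zfp942 was higher, at 22.2, 27.3 and 30.0 CPM in CAST against 17.2, 19.1 and 21.04 CPM in WSB (log2 0.49 ± 0.08 SE, edgeR adjusted p = 1.46e-04). The other 9 members had differences from -0.37 to 0.49 that did not pass the test.

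In the run from Zfp871 to Zfp101, also on chromosome 17, 5 of 12 members were lower and 1 was higher in CAST. Zfp811 had 11.5, 12.2 and 13.4 CPM in CAST and 20.1, 23.1 and 27.7 CPM in WSB (log2 -0.94 ± 0.07 SE, edgeR adjusted p = 2.32e-07). Its neighbour Zfp799 went the other way, with 15.3, 19.8 and 22.2 CPM in CAST and 4.38, 6.60 and 9.28 CPM in WSB (log2 1.54 ± 0.16 SE, edgeR adjusted p = 3.54e-06). The strains overlapped in neither gene. The gene model Gm26693 on the opposite strand covers much of Zfp799, with 7.004% of its exon bases outside other genes. The count of Zfp799 may lack reads set aside as lying in both genes, or hold reads of that gene model. These counts do not show which.

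Zfp955a and Zfp955b, in the same run, are near-identical copies that gave different values. Zfp955a had 6.06, 6.53 and 7.41 CPM in CAST and 11.1, 11.6 and 12.8 CPM in WSB (log2 -0.81 ± 0.07 SE, edgeR adjusted p = 3.89e-07). Zfp955b had 12.8, 14.4 and 15.4 CPM in CAST and 10.3, 12.8 and 14.1 CPM in WSB (log2 0.20 ± 0.08 SE, edgeR adjusted p = 0.0588). DESeq2 called it (adjusted p = 0.0432), and so did edgeR with upper-quartile scaling and on lane 5 alone. Their coding bases are 98.23% identical, 65.2% and 62.7% of their 32-base words occur in another gene, and 3 of 10 finger units are the same in both, such as this stretch of 84 bases.
Zfp955a: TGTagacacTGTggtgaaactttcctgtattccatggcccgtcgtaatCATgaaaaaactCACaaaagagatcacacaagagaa
Zfp955b: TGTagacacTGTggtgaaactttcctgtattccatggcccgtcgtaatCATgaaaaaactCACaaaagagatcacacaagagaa
A read that lies wholly within such a stretch fits both copies, and is counted for neither when only unique alignments are kept. The part of this in their values was not tested. Both genes are named here after their values were seen. The short run from Zfp119a to Zfp119b held 1 call among 3 members, Zfp959, lower in CAST (log2 -0.46 ± 0.08 SE, edgeR adjusted p = 5.09e-04); Zfp959 shares 31.5% of its 32-base words with another gene.

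**Figure D3:**
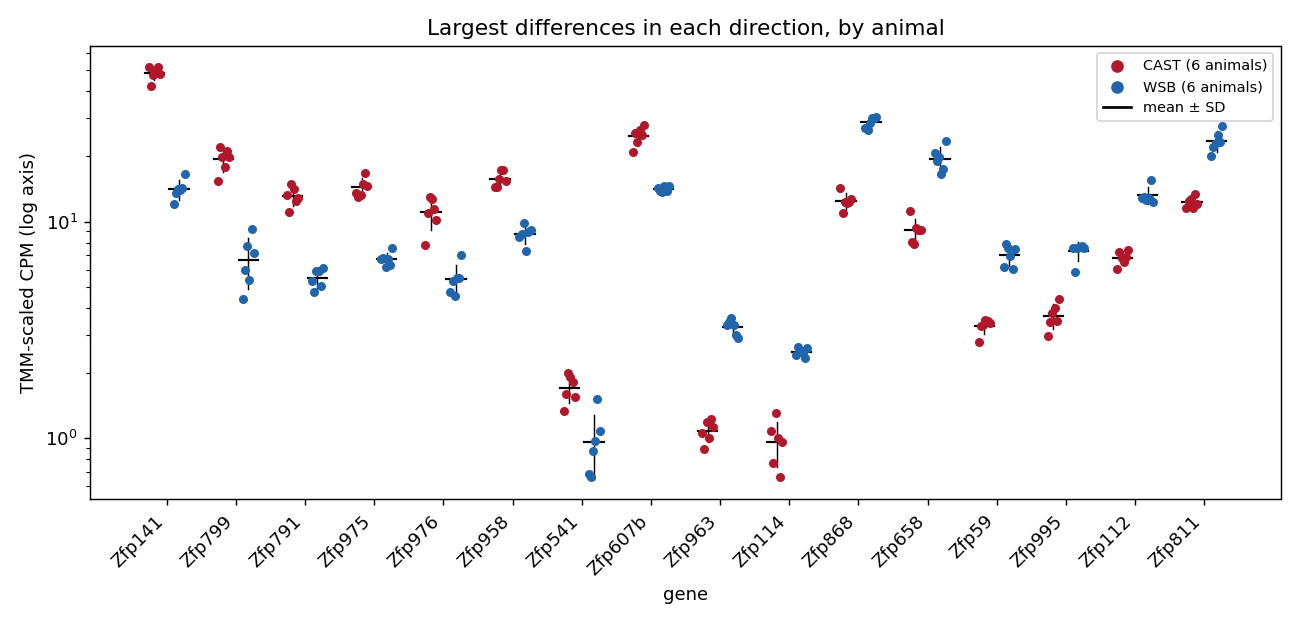
TMM-scaled CPM on a log axis for the 8 largest called differences in each direction among members with a mean log2 CPM of at least 0; points are animals, horizontal bars the mean and vertical bars the SD of 6 animals. Zfp141 lies at 42.0 to 51.6 CPM in CAST and at 12.02 to 16.5 CPM in WSB, and Zfp541 is the pair in which the strains overlap.

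Among single members, Zfp791 had the only difference of at least 2-fold. Its body lies at least partly inside another gene, so its count may lack reads set aside as lying in both genes, or hold reads of that gene. Zfp791, a KRAB zinc finger gene on chromosome 8, had 11.02, 13.1 and 14.9 CPM in CAST and 4.71, 5.598 and 6.12 CPM in WSB (2.39-fold, log2 1.26 ± 0.09 SE, edgeR adjusted p = 8.21e-08). Zfp958 had 14.4, 15.6 and 17.4 CPM in CAST and 7.33, 8.81 and 9.87 CPM in WSB (log2 0.85 ± 0.08 SE, edgeR adjusted p = 8.72e-07). The strains did not overlap in either gene. Zfp541, known from meiosis in the testis, had 1.33, 1.71 and 1.99 CPM in CAST and 0.664, 0.920 and 1.51 CPM in WSB (log2 0.82 ± 0.20 SE, edgeR adjusted p = 0.00412).

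Of the single members with known roles that were tested, Zfp57 and Zfp36 were called and Zfp36l2, Zfp423 and Zfp536 were not. Zfp57, a KRAB protein that keeps the methylation of imprinted genes, had 10.7, 13.0 and 15.02 CPM in CAST and 8.37, 10.4 and 11.9 CPM in WSB (log2 0.30 ± 0.10 SE, edgeR adjusted p = 0.0303), with overlap. Zfp36, or tristetraprolin, has fingers of another class that bind AU-rich RNA and promote its decay. It had 2.28, 2.90 and 3.11 CPM in CAST and 1.42, 1.92 and 2.79 CPM in WSB (log2 0.47 ± 0.17 SE, edgeR adjusted p = 0.0355). Zfp36 lost its call without WSB_100 (edgeR adjusted p = 0.0738) and without WSB_100 and CAST_142 together (edgeR adjusted p = 0.0773). Its relative Zfp36l2 was not called (log2 0.13 ± 0.11 SE, edgeR adjusted p = 0.335).

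Zfp423, a partner of Ebf factors in brain development, had 24.5, 28.8 and 37.1 CPM in CAST and 26.7, 30.5 and 39.6 CPM in WSB (edgeR adjusted p = 0.550). Zfp536, which restrains neuronal differentiation, had 62.0, 63.8 and 111 CPM in CAST and 55.4, 61.6 and 65.7 CPM in WSB (edgeR adjusted p = 0.211). The animal at 111 CPM was CAST_142, and the log2 difference was 0.22 with it and 0.04 without it (edgeR adjusted p = 0.455). Zfp42, the pluripotency marker also called Rex1, was too low to be tested, with 7 reads over the CAST and 49 over the WSB animals. With no filter beyond 1 read it was called, and WSB_100 stood at 0.563 CPM against 0.0699 to 0.183 in the other WSB animals.

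Of the 5 members with most reads, only Zfp318 was called. Zfp523 had the most, with 82.0, 105 and 113 CPM in CAST and 96.6, 104 and 117 CPM in WSB (edgeR adjusted p = 0.514). Zfp827, which recruits the NuRD complex, and Zfp871 were not called either (edgeR adjusted p = 0.340 and 0.605). Zfp318 passed at a difference of 0.10 ± 0.04 SE (edgeR adjusted p = 0.0359). Without WSB_100 it did not pass (edgeR adjusted p = 0.0834), nor did it with upper-quartile scaling (0.0527), without the filter on low counts (0.0777) or on lane 6 alone (0.0691).

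A pattern of the KRAB domain was searched in the protein of each member, translated from the GENCODE M21 coding sequence, and 113 of 162 held it, 92 clustered and 21 single. A member without a match may still have such a domain. Of tested members with the pattern 62 of 106 (58.5%) were called, 28 higher and 34 lower in CAST, and of those without it 15 of 42 (35.7%). The background was 42.7% of all genes and 39.3% of protein-coding genes. All 11 differences of at least 2-fold were in members with the pattern. Most clustered members carry it, so the groups overlap: 53 of 89 clustered (59.6%) and 9 of 17 single members with the pattern (52.9%) were called. Without it, 8 of 17 clustered (47.1%) and 7 of 25 single members (28%) were called. The number of classical fingers ranged from 0 to 33, with a median of 12 in clustered and 10 in single members.

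**Figure D4:**
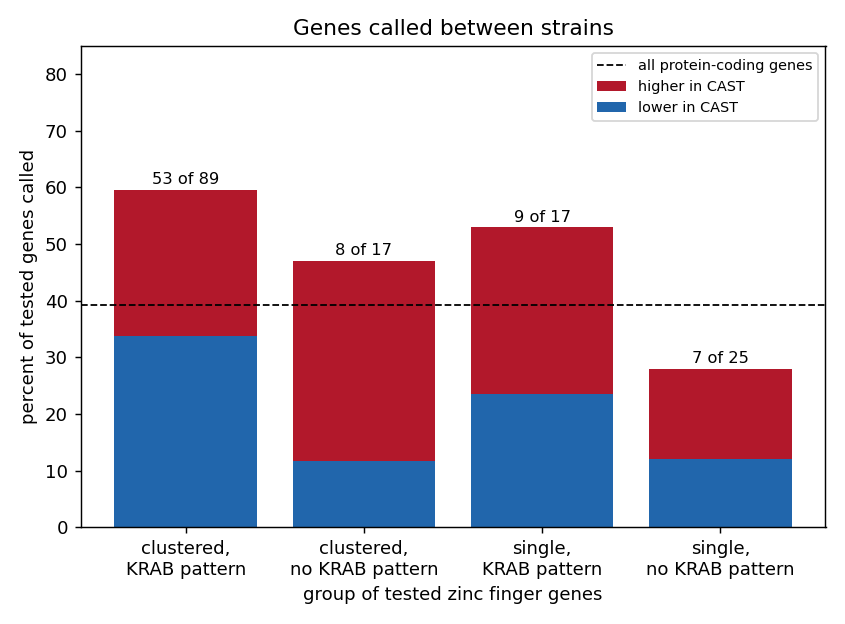
Percent of tested members called between the strains, by place and KRAB pattern, with the counts over the bars; red is higher and blue lower in CAST, and the dashed line is the 39.3% of protein-coding genes. The bars stand at 59.6%, 47.1%, 52.9% and 28%.

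Shared sequence and overlap were also unequal between the groups. At least 20% of 32-base words were shared with another gene in 29 of the 148 tested members, and 26 of these were clustered. Gene models that overlap a member count as another gene in this share, so shared words and overlap are not separate measures. Of those 26, 17 (65.4%) were called, with a median size of 0.62 and 7 differences of at least 2-fold. The background was 42.7% of all genes and 39.3% of protein-coding genes called, and 12.2% and 7.46% called with at least 2-fold. With under 20% shared, 44 of 80 clustered members (55.0%) were called with a median size of 0.25, and 15 of 39 single members (38.5%) with a median size of 0.16. Of these calls, 3 in clustered and 1 in single members were at least 2-fold. Where the body lay wholly outside other genes, 48 of 83 clustered (57.8%) and 9 of 22 single members (40.9%) were called, 6 and 0 of them at least 2-fold. Where it lay partly or wholly inside other genes, 20 of 43 members were called, 5 of them at least 2-fold. The part of shared sequence and of overlap in the differences was not tested.

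**Figure D5:**
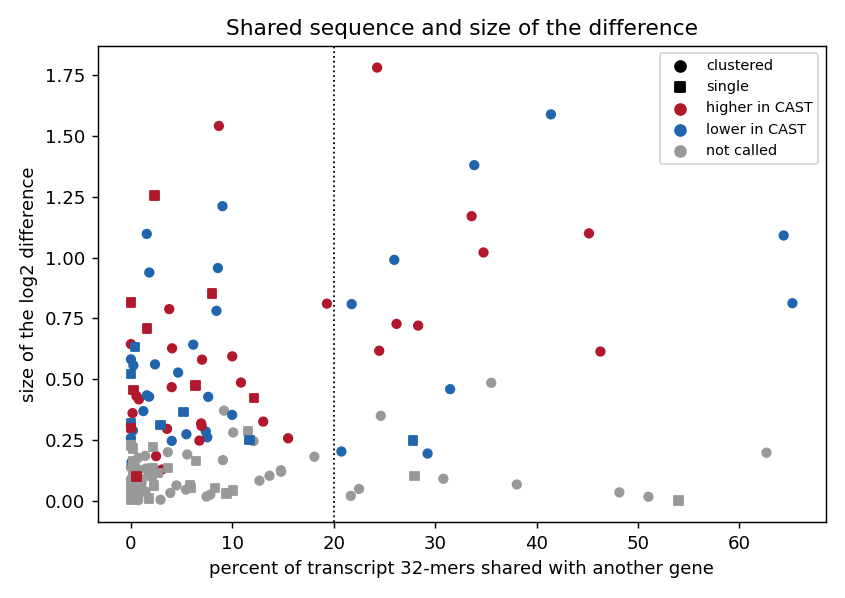
Size of the log2 difference (y axis, sign left out) against the percent of transcript 32-base words found in another gene (x axis) for the 148 tested members; circles are clustered and squares single, and the dotted line is at 20%. Of the 29 points at or right of the line 26 are circles, and their sizes have a median of 0.62.

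The 14 members that were not tested include 7 listed at 0 reads in every animal. Zfp865, Zfp784, Zfp580, Zfp143 and Zfp276 have 0% of their body outside other genes. Zfp143 is an activator found at many promoters, and its listed 0 says nothing of its expression. Zfp960 and Zfp97 on chromosome 17 have bodies wholly outside other genes, but 88.7% and 87.4% of their 32-base words occur in another gene. Their coding bases are 98.17% identical, and 6 of the 11 finger units of Zfp97 recur unchanged in Zfp960. The stretch of 84 bases below, from the same place in both, differs at a single base.
Zfp97: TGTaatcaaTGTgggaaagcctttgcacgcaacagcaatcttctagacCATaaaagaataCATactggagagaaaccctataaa
Zfp960: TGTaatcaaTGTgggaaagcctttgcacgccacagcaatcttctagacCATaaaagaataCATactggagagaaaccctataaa
Neither gene has a counted read, and the part of shared sequence in that was not tested.

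Promoters of 144 of the 162 members were found in the RefSeq set (GRCm38.p6). They were searched on both strands for CCAAT, the site of the factor NF-Y; for CCGGAAG, a site of the ETS family; for GCATGCGC, the core of the NRF1 site; and for the TATA box as TATAAA. These motifs do not contain each other. CCAAT was in 58 of 105 clustered (55.2%) and 14 of 39 single members (35.9%), against 37.9% of all 27025 promoters of the same length. CCGGAAG was in 18.1% of clustered and 28.2% of single members, against 9.12% of all. GCATGCGC was in 7.62% and 5.13%, against 2.80% of all. TATAAA was in 4.76% and 7.69%, against 14.2% of all. The median number of CG pairs was 12 in clustered, 16 in single members and 7 in all promoters.

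Beside the members themselves, a list was kept of genes that act with KRAB zinc finger proteins. Of its 37 corepressor and heterochromatin genes, 36 were tested, 3 were higher and 3 lower in CAST, and 30 did not pass, where the background was 39.3% of protein-coding genes called. The median size was 0.07, against 0.18 over protein-coding genes, and the list was not tested against other genes. Trim28 itself had 103, 105 and 119 CPM in CAST and 104, 107 and 115 CPM in WSB (log2 -0.02 ± 0.04 SE, edgeR adjusted p = 0.774). Hdac1, a histone deacetylase of NuRD and other complexes, had 16.4, 17.01 and 23.2 CPM in CAST and 9.94, 11.2 and 13.3 CPM in WSB, with no overlap (log2 0.68 ± 0.10 SE, edgeR adjusted p = 1.28e-04). Trim24, a relative of Trim28, was higher by 0.18 ± 0.05 SE (edgeR adjusted p = 0.00871). Mbd3, a NuRD subunit, fell by 0.12 ± 0.04 SE on the log2 scale (edgeR adjusted p = 0.0160). The remaining 3 calls, Smarcad1, Mta2 and Morc2a, had sizes of 0.12 to 0.15 and are named after their values were seen.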

How the data were processed

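The authors deposited raw counts, whole numbers of reads for each gene, in 24 files (12 animals, each on lanes 5 and 6). Per the submitters' processing notes, cutadapt, TopHat2 2.1.1, HTSeq and DESeq2 were used, with no roles or order; no source used here gives the reference genome, the annotation, the strand setting or any correction for sequence differences between the strains. Whether reads of the strains map equally well was not tested. Counters that name no gene were left out; alignments in more than 1 gene made up 11.1% to 16.5%, those that were not unique 15.6% to 16.1% in CAST and 16.99% to 17.5% in WSB animals and those in no feature 4.04% to 4.95%. The lanes of an animal were summed. Many genes whose body lies inside others are listed at 0. A count may lack reads that lie in overlapping genes, and may hold reads of overlapping or antisense genes.

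Of the 53465 identifiers, 53274 were matched to GENCODE M21. The strain comparison used edgeR 4.0.16 under R 4.3.3 (filterByExpr, TMM, robust quasi-likelihood test); SE is the log2 difference divided by the square root of F. On simulated counts, 82.1% of genes changed 1.5-fold, 98.5% changed 2-fold and 100% changed 4-fold were recovered, with 12 false calls over 18293 genes. The simulation gave every gene the same relative spread between animals, changed only a small part of the genes and held no deviant animal. Its rates need not hold for these data. Shared sequence is the share of a gene's 32-base transcript words found in another gene on either strand, genes that overlap it included. Named genes are the 8 largest called differences in each direction (mean log2 CPM of at least 0), the 5 members with most reads, members of known role, the smallest p in each direction in each run, and, of the corepressors, Trim28 and the 3 smallest p among those called; Zfp82, Zfp955a, Zfp955b and some genes marked so in the text were added. The members, lists and alternatives were chosen with earlier results of these data known. Replicate numbers are animal numbers and pair no animals across strains. Alternatives were RLE and upper-quartile scaling, DESeq2 1.42.0, other filters, single lanes, leaving out CAST_142, WSB_100 or both, protein-coding genes only, a 2-fold minimum and other definitions of a run.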

Additional observations from a re-analysis of the deposited data

Results flagged for a closer look

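In 6 of 92 groups of 6 animals, a single animal stood far from the other 5; chance gives about 1 in 20 such groups. CAST_142, the animal with high cerebellar granule cell markers, accounts for 3 of them. It had the highest Zfp536, 111 CPM against 62.0 to 64.6 in the other CAST animals, the highest Trim28, 119 CPM against 103 to 105, and the lowest Zfp59, 2.78 CPM against 3.28 to 3.51. WSB_100, the animal with high olfactory bulb markers, had the highest Zfp42, 0.563 CPM against 0.0699 to 0.183. WSB_135 had the lowest Zfp995, 5.83 CPM against 7.54 to 7.74. WSB_169 had the highest Zfp112, 15.6 CPM against 12.3 to 12.9. The part of tissue makeup in these values was not tested.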

How the results depend on the processing

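Over the scaling, test, filter, lane, animal and gene-class settings, 68 (lane 6) to 84 (without CAST_142) members were called, and the share called was 51.4% to 61.3% of clustered and 31.0% to 45.2% of single members. With DESeq2 81 members were called and the background was 44.8%. Without CAST_142 and WSB_100 together the background was 46.6%. For the other settings no background over all genes is given, so their shares cannot be set against it. A 2-fold minimum left 11 members, 10 clustered and 1 single, and 0 corepressor genes; with no filter beyond 1 read, 3 corepressor genes were called. With run gaps of up to 500 kb, 68 of 121 clustered and 9 of 27 single members were called, since fewer members count as single; with 100 kb the counts were 61 of 103 and 16 of 45, and with runs of at least 2 members 63 of 115 and 14 of 33 (median sizes 0.26 and 0.22). For the genes named by rule and tested with the main filter, no direction reversed. Of their values, 476 kept their side of the threshold, 8 passed it (all of Zfp30) and 11 lost it, of Zfp318, Zfp57, Zfp568 and Zfp36. Zfp42, not tested with the main filter, was called with no filter beyond 1 read. Of the genes added after their values were seen, Zfp955b was also called with upper-quartile scaling, DESeq2 and lane 5, and Zfp82 lost its call on either lane alone and at a minimum of 1 CPM. No paired analysis was possible because the animals of the strains share no numbers. Members with few reads are limited by depth: those not tested say nothing of a difference.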
